A study of Mus musculus with 37 samples.

Results

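Luminal progenitors are the hormone receptor-negative cells of the mammary ductal epithelium from which the milk-secreting alveolar cells arise during pregnancy. The 7 genes described here are ones commonly used to mark them: Kit, Aldh1a3, Ehf, Sox10, Sox9, Cd14 and Itgb3. They were chosen by name, as the genes of that list, and each was read from the probe set whose annotation gives that symbol and no other. Each had exactly 1 such probe set, so the rule of taking the brightest was never needed, and all 7 passed the filter on dim genes, out of 19937 genes with a probe set of their own and 16865 that passed the filter.

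The series holds 37 whole-transcript arrays of total RNA from whole mammary glands of FVB mice, 19 of PTP1B-/- females (KO) and 18 of PTP1B +/+ females (WT). Ptpn1 encodes PTP1B, a tyrosine phosphatase with the insulin receptor and JAK2 among its substrates. The KO line had been backcrossed to FVB for at least 7 generations, females were mated at 12 weeks of age, and no treatment was applied. In each genotype, glands came from nulliparous females in oestrus (P0, staged by a plug after a night with a male) and from days 3, 7, 10 and 15 of pregnancy (P3 to P15), with 4, 3, 5, 3 and 4 KO arrays and 4, 3, 4, 3 and 4 WT arrays from P0 to P15. The labels name no tissue or cell type to which the deletion is restricted, and the RNA holds epithelium, fat, vessels and immune cells together. The labels do not say whether replicates were separate animals, so p-values measure only the spread between these samples, which may be technical.

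The median log2 intensity of an array ran from 6.52 to 6.79. Ptpn1 lay between 5.36 and 6.49 in 18 of the 19 KO arrays and between 7.90 and 9.06 in the 18 WT arrays. The array labelled KO P15 replicate 3 read 8.68, inside the WT range, and was kept under its label, so every value for "KO P15" includes it. A further 6 arrays stood apart: WT P0 replicate 4, KO P3 replicate 1 and KO P7 replicate 3 were rich in skeletal muscle transcripts, and WT P7 replicate 1 and KO P10 replicates 2 and 3 were rich in lymphocyte transcripts. These 7, picked after seeing the data, are called the arrays in doubt. Of the 12 pan-epithelial markers used to check the tissue (keratins, claudins, Epcam, Cdh1 and others) all 12 passed the filter.

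The 7 proteins have different jobs. KIT is a receptor tyrosine kinase whose ligand, stem cell factor, is encoded by Kitl. EHF is an epithelial ETS-family transcription factor, and SOX9 and SOX10 are related SOX-family transcription factors. ALDH1A3 oxidises retinaldehyde to retinoic acid. CD14 is a co-receptor that hands lipopolysaccharide to TLR4 and its partner MD-2, and ITGB3 is the integrin beta subunit that pairs with the alpha subunits encoded by Itgav and Itga2b. Several are shared with other cells of a whole gland: Kit with mast cells and melanocytes, Sox10 with Schwann cells and melanocytes, Cd14 with macrophages and neutrophils, and Itgb3 with platelets, vessels and myeloid cells. In RNA of a whole gland, fewer cells of a type and less RNA per cell cannot be told apart.

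The 7 genes did not share a single course over the 10 groups. As a description over the 10 group means, which share no arrays, Sox10 and Sox9 had a Pearson r of 0.99, Ehf had 0.95 with each of them, and Kit had 0.87 with Ehf. Aldh1a3 and Itgb3 had r = 0.82 with each other. With Ehf, Sox9 and Sox10 the r of Aldh1a3 was -0.63, -0.73 and -0.77 and that of Itgb3 -0.55, -0.67 and -0.71, and with Kit they had -0.37 and -0.38. Cd14 followed none of them, its r with the other 6 lying between -0.13 and 0.16.

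**Figure D1:**
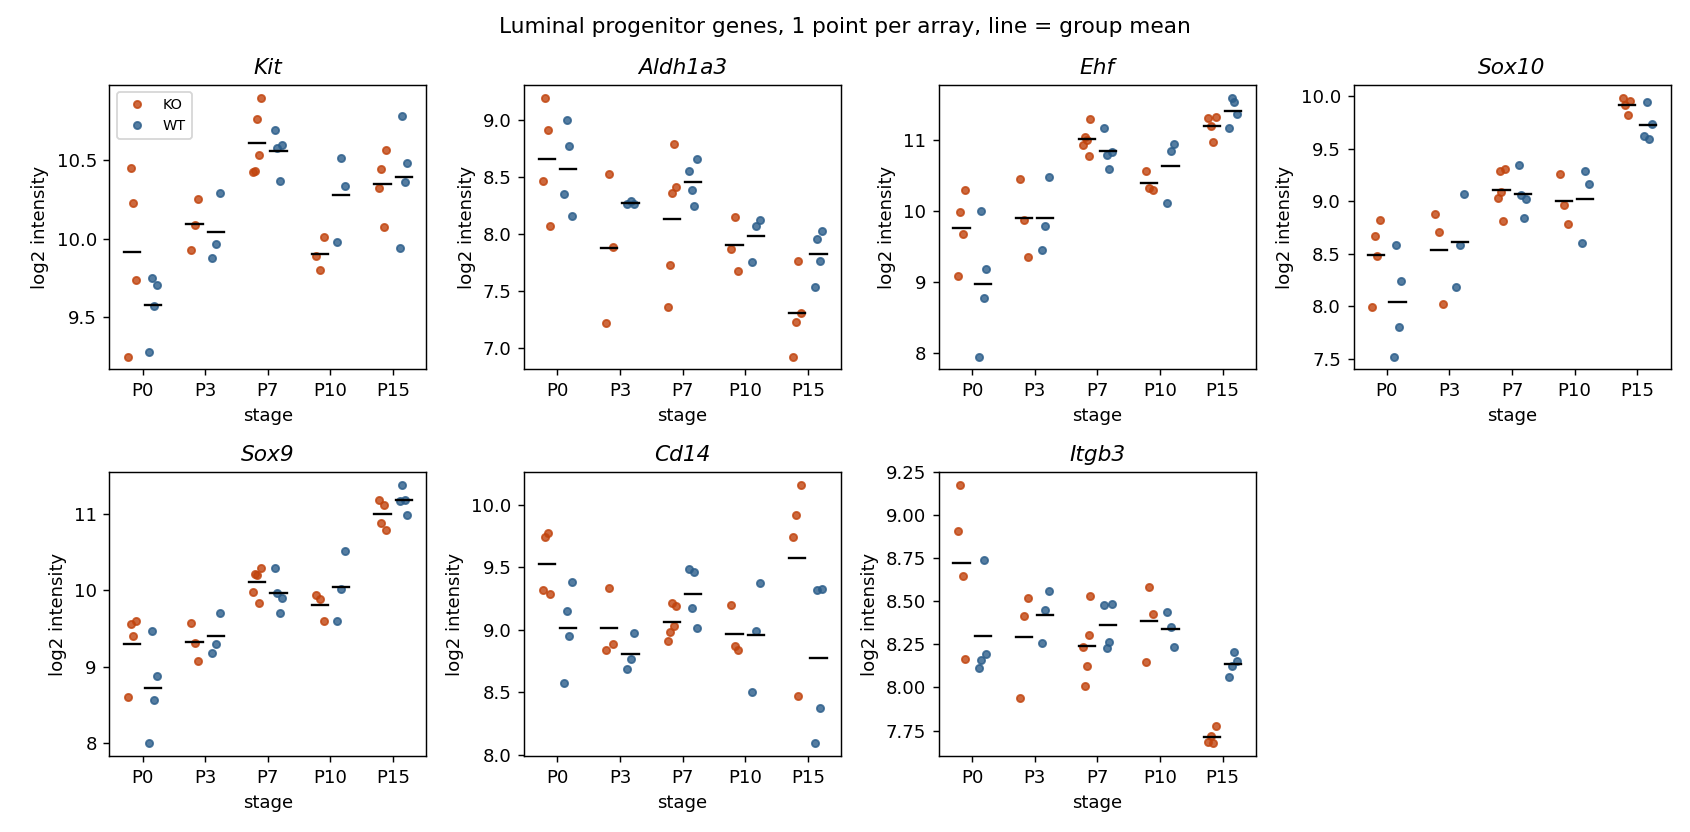
Log2 intensity of each of the 7 genes (y axis) at the 5 stages (x axis), with a point for every array and a short bar at each group mean, KO left of WT. Sox9 reaches 10.79 to 11.19 in KO glands and 10.99 to 11.39 in WT glands at P15, above every P0 array, while Itgb3 drops to 7.68 to 7.78 in KO glands at P15 beside 8.06 to 8.21 in WT glands.

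Throughout, a gene is called, or described as having risen or fallen, where its limma p-value, adjusted by the Benjamini-Hochberg method over the 16865 genes tested, was below 0.05. Shares of all genes called use that same adjusted limit. Counts at an unadjusted p below 0.05 use a looser limit, for which no share of all genes is given, so the 2 cannot be compared. Differences are on the log2 scale, where 1 is a doubling, and are given with their standard error. The 4 comparisons with P0 in a genotype use the same P0 arrays and are not independent of each other.

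Sox9 had the largest P15 change of the 7 genes in KO glands, and in WT glands its change was level with that of Ehf. At P15 its log2 values were 11.19, 10.89, 11.12 and 10.79 in KO glands, against 8.60, 9.56, 9.40 and 9.60 in KO glands at P0. At P15 they were 11.17, 11.39, 11.18 and 10.99 in WT glands, against 7.99, 9.47, 8.56 and 8.88 in WT glands at P0. In both genotypes every P15 array lay more than 1 log2 unit above every P0 array. The P15 against P0 change of Sox9 was 1.71 ± 0.23 in KO glands (3.26-fold, adjusted p = 4.29e-07) and 2.46 ± 0.23 in WT glands (5.50-fold, adjusted p = 5.20e-10). In WT glands Sox9 had already risen at P7 (1.24 ± 0.23, adjusted p = 0.000224) and P10 (1.32 ± 0.25, adjusted p = 0.000590), and the largest step from stage to stage came between P10 and P15, with group means of 10.04 and 11.18. At P3, P7 and P10 the mean log2 values of Sox9 were 9.32 ± 0.25, 10.10 ± 0.19 and 9.81 ± 0.18 in KO glands (SD, n = 3, 5 and 3), and 9.40 ± 0.27, 9.97 ± 0.25 and 10.04 ± 0.46 in WT glands (SD, n = 3, 4 and 3). In the order of the 10 group means 3 of the 9 gaps between neighbours were larger than the residual SD of 0.34: both P15 groups stood above all others, the P3 and KO P0 groups stood below the P7 and P10 groups, and WT P0 stood lowest.

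Ehf, the ETS factor, rose with Sox9. Its P15 values were 11.32, 11.20, 10.97 and 11.33 in KO glands, against 9.09, 9.98, 9.68 and 10.30 at P0. In WT glands they were 11.16, 11.59, 11.54 and 11.36 at P15, against 7.95, 10.00, 8.77 and 9.19 at P0. The WT P0 arrays were the most scattered of any group of this gene (SD 0.85, n = 4), and the 4 of them still lay below all P15 arrays. The change at P15 was 1.44 ± 0.29 in KO glands (2.71-fold, adjusted p = 0.000166) and 2.44 ± 0.29 in WT glands (5.42-fold, adjusted p = 5.52e-08). Ehf had risen by P7 too: it stood at 10.93, 11.04, 11.00, 10.77 and 11.29 in KO glands, 1.25 ± 0.28 above P0 (adjusted p = 0.00215), and at 11.17, 10.78, 10.60 and 10.83 in WT glands, 1.87 ± 0.29 above P0 (adjusted p = 3.69e-05). The P7 means of 11.01 (KO) and 10.84 (WT) were higher than the P10 means of 10.39 (KO) and 10.64 (WT), a step that was not tested. In WT glands that gap was 0.21, within the residual SD of 0.43, and KO P10 replicates 2 and 3 are arrays in doubt. At P3 the means were 9.90 ± 0.55 in KO glands and 9.91 ± 0.52 in WT glands (SD, n = 3 each). In the order of the group means, 2 of the 9 gaps passed the residual SD of 0.43, the one between the P7 to P15 groups and the rest and the one above WT P0.

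At P3, Ehf was the single gene of the 7 that was called in WT glands (0.93 ± 0.31, adjusted p = 0.0381), in a comparison that called 18.1% of all genes and 11.6% upward. That call was lost without WT P0 replicate 1 (0.59, adjusted p = 0.178), WT P0 replicate 3 (0.86, adjusted p = 0.0921), WT P3 replicate 2 (0.99, adjusted p = 0.0613) or WT P3 replicate 3 (0.64, adjusted p = 0.276), and without the arrays in doubt (1.0, adjusted p = 0.0508). In KO glands at P3 none of the 7 was called by limma, 2 had an unadjusted p below 0.05, and the comparison called 18.8% of all genes.

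Sox10 followed the course of Sox9 with smaller changes. It read 9.99, 9.92, 9.82 and 9.95 in KO glands at P15, against 7.99, 8.67, 8.48 and 8.83 at P0, and 9.62, 9.95, 9.60 and 9.73 in WT glands at P15, against 7.52, 8.59, 7.81 and 8.24 at P0. The P15 change was 1.43 ± 0.21 in KO glands (2.69-fold, adjusted p = 2.25e-06) and 1.69 ± 0.21 in WT glands (3.22-fold, adjusted p = 1.28e-07). At P3, P7 and P10 the mean log2 values were 8.54 ± 0.45, 9.11 ± 0.20 and 9.0 ± 0.24 in KO glands and 8.61 ± 0.44, 9.07 ± 0.21 and 9.02 ± 0.37 in WT glands. Its highest group means were 9.92 in KO P15 and 9.72 in WT P15, which did not differ beyond the residual SD of 0.31, and the gap below them did. Markers of Schwann cells, which share Sox10, went the other way at P15: of the 5 measured, 3 fell and 0 rose in KO glands (median -0.59), and 4 fell and 0 rose in WT glands (median -0.49). Their score, the mean of log2 values centred per gene, ran from -0.38 to -0.26 in KO P15 and from 0.03 to 0.41 in KO P0, and from -0.36 to -0.17 in WT P15 and from -0.13 to 0.48 in WT P0. Of 5 melanocyte markers 3 passed the filter, Tyr and Tyrp1, the pigment enzymes that define the cell, did not, and the score lay between -0.10 and 0.11 in these 4 groups.

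Kit, the stem cell factor receptor, had its highest group means at P7. Its P7 values were 10.42, 10.43, 10.76, 10.53 and 10.89 in KO glands, against 9.25, 10.45, 10.23 and 9.74 at P0, and 10.69, 10.57, 10.37 and 10.59 in WT glands, against 9.28, 9.75, 9.57 and 9.71 at P0. The WT groups did not overlap, and the KO groups overlapped through KO P0 replicate 2. The P15 means were 10.35 ± 0.21 in KO glands and 10.39 ± 0.35 in WT glands (SD, n = 4 each). At P3 they were 10.09 ± 0.16 and at P10 9.90 ± 0.10 in KO glands, and 10.04 ± 0.22 at P3 and 10.28 ± 0.27 at P10 in WT glands. Between neighbours in the order of group means, the gap above WT P0 (9.58) was the 1 of 9 that passed the residual SD of 0.27. In WT glands Kit rose by 0.98 ± 0.19 at P7 (adjusted p = 0.000340), 0.70 ± 0.20 at P10 (adjusted p = 0.0146) and 0.81 ± 0.19 at P15 (adjusted p = 0.000582), and the P10 call was lost without WT P0 replicate 1 (0.60, adjusted p = 0.0512) or WT P10 replicate 2 (0.58, adjusted p = 0.0972). In KO glands it rose at P7 (0.69 ± 0.18, adjusted p = 0.00692) but was not called at P10 (-0.02) or P15 (0.43 ± 0.19, adjusted p = 0.0620). The P15 value was called without KO P0 replicate 2 (0.61, adjusted p = 0.0091), KO P0 replicate 3 (0.54, adjusted p = 0.0321) or KO P15 replicate 3 (0.53, adjusted p = 0.0354). Of the mast cell markers, whose cells share Kit, 8 of 8 fell at P15 in KO glands (median -1.69) and 2 of 8 in WT glands (median -0.57), and their score ran from -1.42 to -0.79 in KO P15 and 0.24 to 1.11 in KO P0, and from -0.76 to -0.12 in WT P15 and -0.49 to 0.64 in WT P0. The Kit ligand gene Kitl fell at P15 in KO glands (-0.36 ± 0.10, adjusted p = 0.00359) and had a difference of 0.00 ± 0.10 in WT glands.

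Where the data bear on Kit moving with Ehf, the reference sequence before its start can be read. Of the 7 genes Kit alone matched the RefSeq promoter table used here (mouse build GRCm38.p6), which lists 2 starts for it. The 250 bases before the first of them, at chr5:75574737-75574986 on the plus strand, are shown 5′ to 3′, with the letters GGAA, the core of sites bound by ETS-family factors such as EHF, in capitals.
Kit: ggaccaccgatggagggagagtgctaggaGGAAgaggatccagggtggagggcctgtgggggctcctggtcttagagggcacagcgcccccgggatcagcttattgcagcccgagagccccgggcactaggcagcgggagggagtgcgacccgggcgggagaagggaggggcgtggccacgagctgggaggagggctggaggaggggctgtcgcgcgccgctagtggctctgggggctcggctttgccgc
A search of both strands found 1 match to GGAA (or TTCC) and 0 matches to ACAAT (or ATTGT), a core of SOX sites. Among the 32851 mouse promoters listed there, 93.4% hold the ETS letters, with a median of 3 matches, and 27.7% hold the SOX letters. A match of this length is a description of the window and says nothing of binding.

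As a group, Ehf, Sox9, Sox10 and Kit made up the 4 of 7 genes that rose at P7 in WT glands, where 29.3% of all genes were called and 15.5% rose, and all 4 calls held with each array left out in turn. At P10 in WT glands the same 4 rose, where 21.4% of genes were called and 11.7% rose. All 4 of these P10 calls were lost in a fit of the compared groups alone, with the same differences (adjusted p = 0.0588 for Kit, 0.0742 for Ehf, 0.0790 for Sox10 and 0.0722 for Sox9). At P15 in WT glands the 4 rose and Aldh1a3 fell, where 48.8% of genes were called, 21.6% upward and 27.3% downward. The median change of the 7 genes at P15 was 0.43 in KO glands and 0.81 in WT glands, beside 0.01 in KO glands and -0.06 in WT glands over all genes.

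In KO glands 5 of the 7 genes were called at P7, where 16.2% of all genes were, 7.84% upward and 8.34% downward: Ehf, Sox9 (0.81 ± 0.22, adjusted p = 0.00900), Sox10 (0.62 ± 0.20, adjusted p = 0.0328) and Kit rose, and Itgb3 fell (-0.48 ± 0.15, adjusted p = 0.0230). A single array mattered here. Without KO P0 replicate 1, the lowest P0 array for Kit, Ehf, Sox10 and Sox9, Ehf alone kept its call, and Kit (0.47, adjusted p = 0.0684), Sox10 (0.45, adjusted p = 0.182), Sox9 (0.58, adjusted p = 0.0792) and Itgb3 (-0.42, adjusted p = 0.0940) lost theirs. Sox10 also lost its call without KO P0 replicate 3, KO P7 replicate 1, 2, 3 or 5 (0.57 to 0.64, adjusted p between 0.0508 and 0.0777), and Itgb3 without KO P0 replicate 2 (-0.33, adjusted p = 0.136), KO P7 replicate 2 (-0.43, adjusted p = 0.0599) or KO P7 replicate 3 (-0.46, adjusted p = 0.0517). At P10, where 30.7% of genes were called in KO glands and 16.3% fell, Aldh1a3 was the 1 gene of the 7 called. KO P10 replicates 2 and 3, rich in lymphocyte transcripts, had pan-epithelial scores of -0.59 and -0.66, and KO P10 replicate 1 had -0.30. With that score as a covariate Ehf (1.57, adjusted p = 6.94e-08), Sox10 (1.16, adjusted p = 4.02e-07) and Sox9 (1.24, adjusted p = 1.18e-07) rose at P10. Aldh1a3 was then not called (-0.54, adjusted p = 0.199). At P15 in KO glands, where 41.3% were called, 19.5% upward and 21.8% downward, Ehf, Sox9 and Sox10 rose and Aldh1a3 and Itgb3 fell, and these 5 calls held with each array left out in turn.

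**Figure D2:**
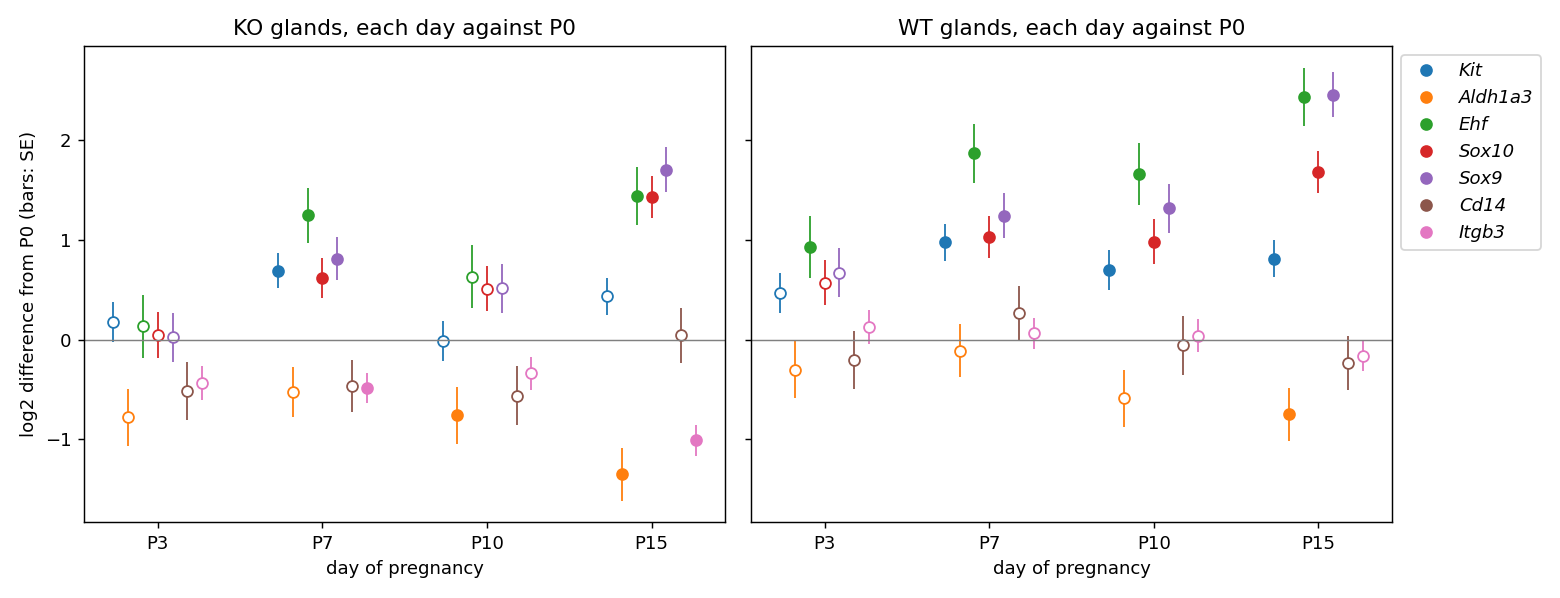
Log2 difference from P0 of the same genotype (y axis) for each of the 7 genes at P3, P7, P10 and P15 (x axis), KO and WT, with bars of 1 standard error; filled markers have an adjusted p below 0.05. Ehf, Sox9 and Sox10 are filled and above 0 at P15 in both genotypes, while Itgb3 is filled and below 0 at P15 in KO glands (-1.01) and open in WT glands (-0.16).

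Some markers of epithelium in general rose as well. Of the 12 pan-epithelial markers 6 rose and 2 fell at P15 in KO glands (median 0.46), and 7 rose and 2 fell in WT glands (median 0.82). Their score ran from 0.35 to 0.45 in KO P15 and from -0.29 to 0.38 in KO P0, and from 0.30 to 0.54 in WT P15 and from -0.83 to 0.41 in WT P0. With that score as a covariate in the fit, the P15 changes in KO glands were 1.06 for Ehf, 1.17 for Sox10 and 1.41 for Sox9, and in WT glands 1.38 for Ehf, 0.94 for Sox10 and 1.64 for Sox9, and all 6 stayed called. Kit in WT glands did not (0.40, adjusted p = 0.121). Alveolar secretory genes (caseins, Wap and others) rose in 9 of 9 cases at P15 in both genotypes, with medians of 1.75 in KO glands and 2.01 in WT glands. Over the 10 group means their score had r = 0.90 with both Sox9 and Sox10, 0.79 with Ehf and 0.42 with Kit. The score of myoepithelial markers (Krt5, Krt14, Acta2 and others) had r = 0.76 with Sox9, 0.73 with Sox10, 0.78 with Ehf and 0.70 with Kit.

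**Figure D3:**
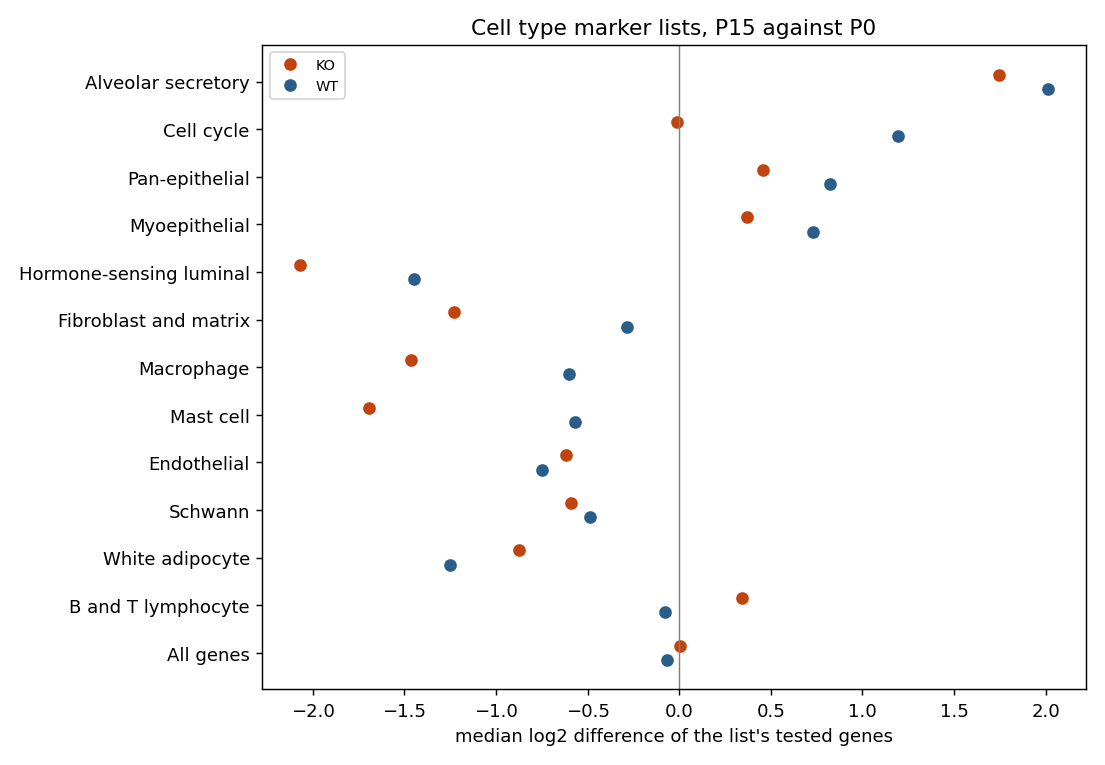
Median log2 difference of P15 from P0 (x axis) for 12 marker lists (rows) and over all genes (last row), KO and WT. Alveolar secretory genes lie highest, at 1.75 in KO glands and 2.01 in WT glands, and mast cell, macrophage and matrix genes lie further below 0 in KO glands than in WT glands.

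Aldh1a3, the retinoic acid-forming enzyme, fell at P15 in both genotypes. Its values at P15 were 6.93, 7.23, 7.77 and 7.31 in KO glands, against 8.47, 9.19, 8.91 and 8.07 in KO glands at P0. In WT glands they were 7.53, 7.95, 7.77 and 8.03 at P15, against 8.35, 9.0, 8.77 and 8.16 at P0. In both genotypes all P15 arrays lay below all P0 arrays. At P3, P7 and P10 the mean log2 values were 7.88 ± 0.65, 8.13 ± 0.57 and 7.90 ± 0.24 in KO glands, with the KO P3 and KO P7 arrays widely scattered, and 8.27 ± 0.02, 8.46 ± 0.18 and 7.98 ± 0.20 in WT glands. The gap below WT P15, to KO P15, was the 1 of 9 between neighbouring group means that passed the residual SD of 0.39. The change was -1.35 ± 0.26 in KO glands (2.55-fold lower, adjusted p = 0.000108), which stayed called with each array left out in turn (-1.55 to -1.17). In WT glands it was -0.75 ± 0.26 (adjusted p = 0.0194), and that call was lost without WT P0 replicate 2 (-0.61, adjusted p = 0.0708), WT P0 replicate 3 (-0.68, adjusted p = 0.0550) or WT P15 replicate 1 (-0.65, adjusted p = 0.0606). Earlier in KO glands the change was -0.78 ± 0.29 at P3 (adjusted p = 0.0537) and -0.53 ± 0.25 at P7 (adjusted p = 0.157), neither called. The KO P3 value was called without KO P0 replicate 4 (-0.98, adjusted p = 0.0174) or KO P3 replicate 2 (-1.10, adjusted p = 0.0136). At P10 the KO change was -0.76 ± 0.29 (adjusted p = 0.0420), a call lost without the arrays in doubt (-0.79, adjusted p = 0.309). That call was also lost in 5 of the 7 fits with a P0 or P10 array left out. Among those were KO P0 replicate 2 (-0.58, adjusted p = 0.149), KO P0 replicate 3 (-0.68, adjusted p = 0.102) and each of the 3 KO P10 arrays (-0.89 to -0.65, adjusted p between 0.0546 and 0.168).

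Other genes of the retinoid pathway were followed at P15. In KO glands 1 of the 7 listed rose and 4 fell, where 19.5% of all genes rose and 21.8% fell. In WT glands 1 rose and 2 fell, where 48.8% of all genes were called, so the count in WT glands was near that of any genes. Crabp2, a carrier of retinoic acid, rose by 1.28 ± 0.27 in KO glands and by 2.51 ± 0.27 in WT glands, and Rarb, a retinoic acid receptor, fell in both (-0.74 ± 0.20 in KO glands, -1.42 ± 0.20 in WT glands). Cyp26b1, which breaks retinoic acid down, fell by 0.28 in KO glands and by 0.52 in WT glands. Stra6, a retinol transporter, fell in KO glands (-1.35 ± 0.23, adjusted p = 2.01e-05), where Aldh1a2, a related retinaldehyde dehydrogenase, fell too (-0.71 ± 0.18, adjusted p = 0.00192), and the WT values were 0.16 ± 0.23 and -0.35 ± 0.18.

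Itgb3, the integrin beta subunit, fell in KO glands and was not called in WT glands. At P15 it read 7.68, 7.72, 7.68 and 7.78 in KO glands, against 8.91, 9.18, 8.65 and 8.16 in KO glands at P0. In WT glands it read 8.06, 8.12, 8.21 and 8.16 at P15, against 8.11, 8.16, 8.74 and 8.19 at P0. The KO P15 arrays were the 4 lowest of all 37, among them KO P15 replicate 3 (7.68), whose Ptpn1 was at the WT level. The KO P0 mean of 8.72 was the highest of the 10 groups. At P3, P7 and P10 the mean log2 values were 8.29 ± 0.31, 8.24 ± 0.20 and 8.39 ± 0.22 in KO glands and 8.42 ± 0.15, 8.36 ± 0.14 and 8.34 ± 0.10 in WT glands. The 2 gaps between neighbouring group means that passed the residual SD of 0.23 were the one below KO P0 and the one above KO P15. The change was -1.01 ± 0.16 in KO glands (2.02-fold lower, adjusted p = 4.20e-06) and -0.16 ± 0.16 in WT glands (adjusted p = 0.402). It stayed called in KO glands with each array left out (-1.20 to -0.86). In WT glands the fall was called when each array was centred on its median (-0.35, adjusted p = 0.0413).

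That contrast between the genotypes was tested on its own, in a test added after seeing the data. The P15 against P0 change of Itgb3 was 0.85 ± 0.22 lower in KO glands than in WT glands (log2 difference -0.85, 95% interval -1.30 to -0.40, adjusted p = 0.0131), in a comparison that called 10.1% of all genes and 5.30% with a lower change in KO glands. It was called in all 16 fits with a P0 or P15 array left out (-1.04 to -0.70, adjusted p between 0.00182 and 0.0369), with the pan-epithelial score as a covariate (-0.92, adjusted p = 0.0117) and without the arrays in doubt (-0.80, adjusted p = 0.0349). The difference rests on both ends: Itgb3 was 0.42 ± 0.16 higher in KO glands than in WT glands at P0 (adjusted p = 0.133) and 0.42 ± 0.16 lower at P15 (adjusted p = 0.0775), and neither was called alone, although the KO and WT arrays did not overlap at P15. The F test for any variation of the genotype difference over the 5 stages, which called 18.0% of all genes, gave Itgb3 F = 3.93 and adjusted p = 0.0567, and called none of the 7. It was 1 of the 7 with an unadjusted p below 0.05.

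**Figure D4:**
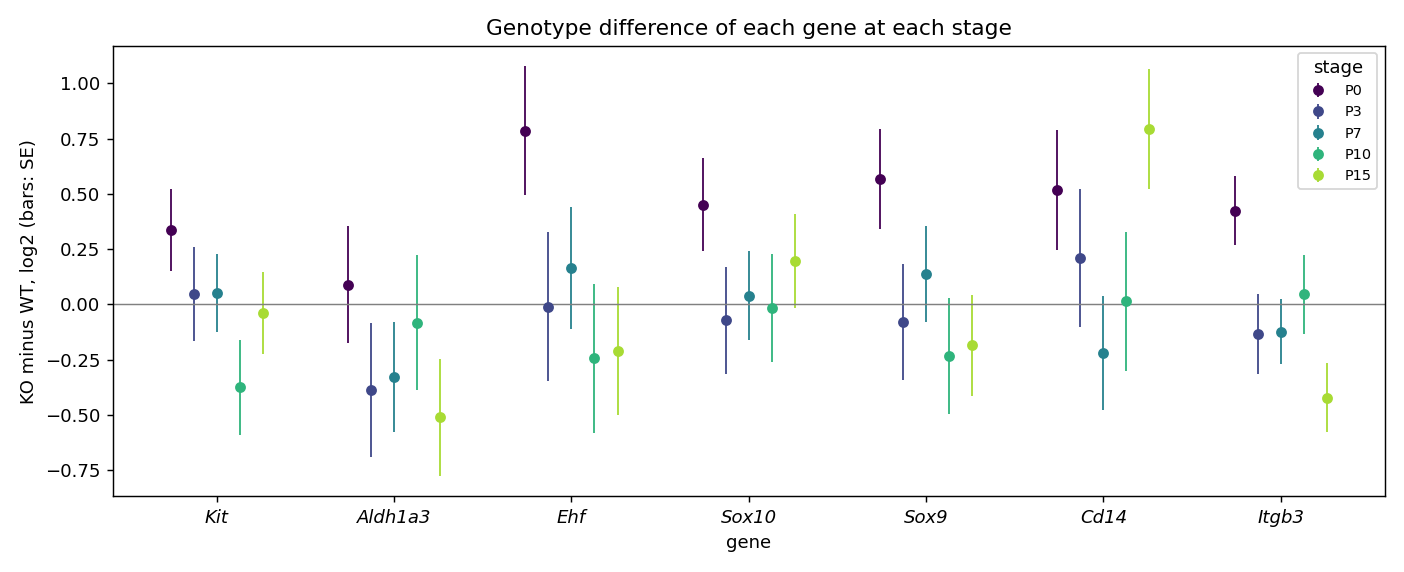
Log2 difference between KO and WT glands (y axis) for each of the 7 genes at the 5 stages (x axis), with bars of 1 standard error. All 7 differences are above 0 at P0, and at P15 Itgb3 is 0.42 below 0 and Cd14 is 0.80 above it.

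Markers of other cell types moved with Itgb3, and over the group means with Aldh1a3 too. Matrix genes fell in 10 of 10 cases in KO glands at P15 (median -1.23) and in 4 of 10 in WT glands (median -0.28), macrophage markers in 8 of 8 in KO glands (median -1.47) and 5 of 8 in WT glands (median -0.60). In the test of the genotype difference in that change, 8 of 10 matrix genes were called lower in KO glands (median -0.77), and so were 1 of 8 macrophage (median -0.81) and 2 of 8 mast cell markers (median -0.90). Their scores in KO P15 and KO P0 ran from -0.87 to -0.59 and 0.10 to 0.59 for matrix, -0.88 to -0.68 and 0.39 to 1.14 for macrophages, and -1.42 to -0.79 and 0.24 to 1.11 for mast cells. In WT P15 and WT P0 the ranges were -0.27 to -0.10 and -0.01 to 0.31 for matrix, and -0.68 to -0.42 and -0.48 to 0.69 for macrophages. Over the 10 group means Itgb3 had r = 0.94 with the mast cell, 0.85 with the macrophage and 0.82 with the matrix score. Aldh1a3 had r = 0.84, 0.70 and 0.88 with the same scores. With the hormone-sensing luminal, Schwann and alveolar secretory scores Aldh1a3 had r = 0.79, 0.73 and -0.78, and Itgb3 0.65, 0.73 and -0.70. The part of these cell types in the fall of either gene was not tested. Platelet markers fell in 2 of 4 cases in both genotypes, with medians of -0.50 in KO glands and -0.63 in WT glands, and none of the 4 differed between genotypes in that change.

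The partners of ITGB3 were followed as well. Itgav, its alpha-v partner, fell at P15 in KO glands (-0.64 ± 0.09, adjusted p = 4.63e-07) and was not called in WT glands (0.13 ± 0.09), and the difference between those changes was called (-0.77 ± 0.12, adjusted p = 0.000257). Itgav was also higher in KO glands at P0 (0.38 ± 0.09, adjusted p = 0.0187) and lower at P15 (-0.39 ± 0.09, adjusted p = 0.00290). Itga2b, the platelet alpha subunit, fell in both genotypes (-0.41 ± 0.10 in KO glands, -0.34 ± 0.10 in WT glands), and Vtn, which encodes the ligand vitronectin, fell in KO glands (-0.82 ± 0.23, adjusted p = 0.00436) with a WT value of -0.37 ± 0.23.

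Cd14, the lipopolysaccharide co-receptor, was called in no comparison, and its largest difference between genotypes was at P15. Its values at P15 were 9.74, 9.92, 8.47 and 10.16 in KO glands, against 8.09, 9.32, 8.38 and 9.33 in WT glands. At P0 they were 9.32, 9.74, 9.78 and 9.29 in KO glands, against 8.57, 9.15, 8.95 and 9.39 in WT glands. At P15, 3 KO arrays lay above all 4 WT arrays, and the lowest KO array, 8.47, was replicate 3, the one whose Ptpn1 was at the WT level. For Itgb3 that same array lay with the other KO P15 arrays. With all arrays Cd14 was 0.80 ± 0.27 higher in KO glands at P15 and not called (adjusted p = 0.0551). It was called without KO P15 replicate 3 (1.16, adjusted p = 0.00197), WT P15 replicate 2 (0.97, adjusted p = 0.0246) or WT P15 replicate 4 (0.98, adjusted p = 0.0313), and its range with each array left out was 0.57 to 1.16. Without the arrays in doubt it was 1.16 (adjusted p = 0.00306).

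No stage differed from P0 for Cd14 by the test in either genotype. In KO glands its change was -0.51 ± 0.29 at P3 (adjusted p = 0.236) and -0.47 ± 0.26 at P7 (adjusted p = 0.238). The KO P7 and KO P0 arrays did not overlap, and a fit of these groups alone called the fall (adjusted p = 0.0288). At P10 in KO glands a fall was called with each array centred on its median (-0.72, adjusted p = 0.0428) and with array weights (-0.70, adjusted p = 0.0245). The P15 change was 0.04 ± 0.27 in KO glands and -0.24 ± 0.27 in WT glands (adjusted p = 0.494). At P3, P7 and P10 the mean log2 values were 9.02 ± 0.27, 9.07 ± 0.13 and 8.97 ± 0.20 in KO glands and 8.81 ± 0.15, 9.29 ± 0.23 and 8.96 ± 0.44 in WT glands. None of the 9 gaps between neighbours in the order of its 10 group means, which ran from 8.78 (WT P15) to 9.57 (KO P15), exceeded its residual SD of 0.40. Markers of cells that share Cd14 were not called at P15: 0 of 8 macrophage markers (2 with an unadjusted p below 0.05) and 0 of 5 neutrophil markers (0 with an unadjusted p below 0.05) were called between KO and WT glands by limma, with medians of -0.26 and -0.04. The macrophage score ran from -0.88 to -0.68 in KO P15 and from -0.68 to -0.42 in WT P15. Ly96, which encodes MD-2, rose at P15 in both genotypes (1.11 ± 0.26 in KO glands, 1.40 ± 0.26 in WT glands), as did Lbp, which loads lipopolysaccharide onto CD14 (0.63 ± 0.20 in KO glands, 1.0 ± 0.20 in WT glands), and Tlr4 was called in neither (-0.21 ± 0.17 in KO glands, 0.01 ± 0.17 in WT glands).

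Between genotypes, none of the 7 genes was called by limma in the mean over the 5 stages, where 2.43% of all genes were. At the looser limit of an unadjusted p below 0.05, to which that share does not apply, 1 of the 7 passed. That gene was Cd14, 0.26 ± 0.13 higher in KO glands (95% interval 0.00 to 0.52, adjusted p = 0.276). Aldh1a3 was at -0.24 ± 0.12 (95% interval -0.50 to 0.01), and the other 5 lay between -0.04 and 0.12. For Kit the interval of the mean difference was -0.17 to 0.18, for Sox9 -0.18 to 0.26 and for Itgb3 -0.19 to 0.11.

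At P0 all 7 differences between KO and WT glands were above 0, with a median of 0.45 beside -0.01 over all genes. None was called by limma, where 1.70% of all genes were. At the looser limit of an unadjusted p below 0.05, to which that share does not apply, 4 of the 7 passed. Those were Ehf (0.79 ± 0.29, adjusted p = 0.136), Sox9 (0.57 ± 0.23, adjusted p = 0.164), Sox10 (0.45 ± 0.21, adjusted p = 0.222) and Itgb3 (0.42 ± 0.16, adjusted p = 0.133). Cd14 differed by 0.52 ± 0.27 (adjusted p = 0.270) and did not pass that limit. WT P0 replicate 2 was the highest WT P0 array for these 2 SOX genes and Ehf, and without it Ehf (1.13, adjusted p = 0.0112) and Sox9 (0.81, adjusted p = 0.0192) were called. Without KO P0 replicate 4, Itgb3 was called (0.61, adjusted p = 0.0289). Leaving out other single arrays made these differences smaller, down to 0.44 for Ehf, 0.32 for Sox9 and 0.27 for Itgb3. The highest adjusted p-values among those fits were 0.418, 0.463 and 0.336. The median difference of the pan-epithelial markers at P0 was 0.51, with 0 of 12 called and 9 at an unadjusted p below 0.05, and their scores were -0.29, 0.38, 0.16 and 0.31 in KO P0 and -0.83, 0.41, -0.56 and -0.49 in WT P0. With that score as a covariate the P0 differences were 0.06 for Ehf, 0.01 for Sox9, 0.06 for Kit and -0.053 for Sox10, while Itgb3 stood at 0.50 (adjusted p = 0.177).

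At P3, P7 and P10 the differences between genotypes of the 7 genes ran from -0.39 (Aldh1a3) to 0.21 (Cd14) at P3, from -0.33 (Aldh1a3) to 0.16 (Ehf) at P7 and from -0.38 (Kit) to 0.05 (Itgb3) at P10. None was called by limma or had an unadjusted p below 0.05 at these 3 stages, where 0.119%, 0.00593% and 17.2% of all genes were called. At P15, where 11.1% were called, 0 of the 7 were. The looser limit of an unadjusted p below 0.05, to which that share does not apply, was passed by 2 (Cd14 and Itgb3). Aldh1a3 was at -0.51 ± 0.26 (95% interval -1.05 to 0.03) and Ehf at -0.21 ± 0.29 (95% interval -0.81 to 0.38).

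In the added test of the change between P0 and P15, Ehf (-1.0 ± 0.41, adjusted p = 0.118) and Sox9 (-0.75 ± 0.32, adjusted p = 0.131) were not called. Without WT P0 replicate 2 both were called (-1.34, adjusted p = 0.0152, and -1.0, adjusted p = 0.0221), and without KO P0 replicate 1 Sox9 was (-0.98, adjusted p = 0.0400). With the pan-epithelial score as a covariate they were -0.31 and -0.22.

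Other genes of luminal progenitors, alveolar fate and the pathways of the 7 were followed as a list of 27, of which 25 were measured. Of these, 6 rose and 9 fell at P15 in KO glands, beside 19.5% and 21.8% of all genes, and 8 rose and 5 fell in WT glands, beside 21.6% and 27.3% of all genes, so the total called in WT glands was near the 48.8% of all genes. Elf5, the ETS factor of alveolar differentiation, rose by 2.35 ± 0.33 in KO glands and 2.97 ± 0.33 in WT glands, and Bcl11a, a zinc finger factor of luminal progenitors, rose by 1.33 ± 0.25 in KO glands and 1.6 ± 0.25 in WT glands. Foxc1, a forkhead factor, rose by 1.20 ± 0.22 in KO glands and 1.35 ± 0.22 in WT glands, and Hey1, a target of Notch signalling, fell by 1.46 in KO glands and 1.44 in WT glands. Runx1, a transcription factor of the Runt family, rose in WT glands (0.55 ± 0.17, adjusted p = 0.00822, with 0.10 ± 0.17 in KO glands), and the difference between the genotypes was not called (adjusted p = 0.234). Itga2, which encodes the alpha subunit CD49b, rose in WT glands (0.65 ± 0.19, adjusted p = 0.00617) and stood at 0.20 ± 0.19 in KO glands, again with no call for the difference (adjusted p = 0.301).

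Cebpb, which encodes a transcription factor needed for lobuloalveolar growth, differed between the genotypes. It fell in WT glands at P15 (-1.0 ± 0.12) and was not called in KO glands (-0.05 ± 0.12), and the difference in the change was called (0.95 ± 0.17, adjusted p = 0.000787). At P15 Cebpb was higher in KO glands than in WT glands (0.63 ± 0.12, adjusted p = 0.000608). The other called differences in that change among the 25 were lower in KO glands: Itgav, Stra6 (-1.51 ± 0.33, adjusted p = 0.00402) and Crabp2 (-1.24 ± 0.39, adjusted p = 0.0376). In the mean over stages Kitl (-0.18 ± 0.05, adjusted p = 0.0394) and Itgav (-0.19 ± 0.04, adjusted p = 0.0124) were lower in KO glands, and at P10 the same 2 genes were lower together with Notch1 (-0.56, adjusted p = 0.00816) and Notch3 (-0.69, adjusted p = 0.00547), which encode Notch receptors, while 2 of the 3 KO P10 arrays are arrays in doubt.

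**Figure D5:**
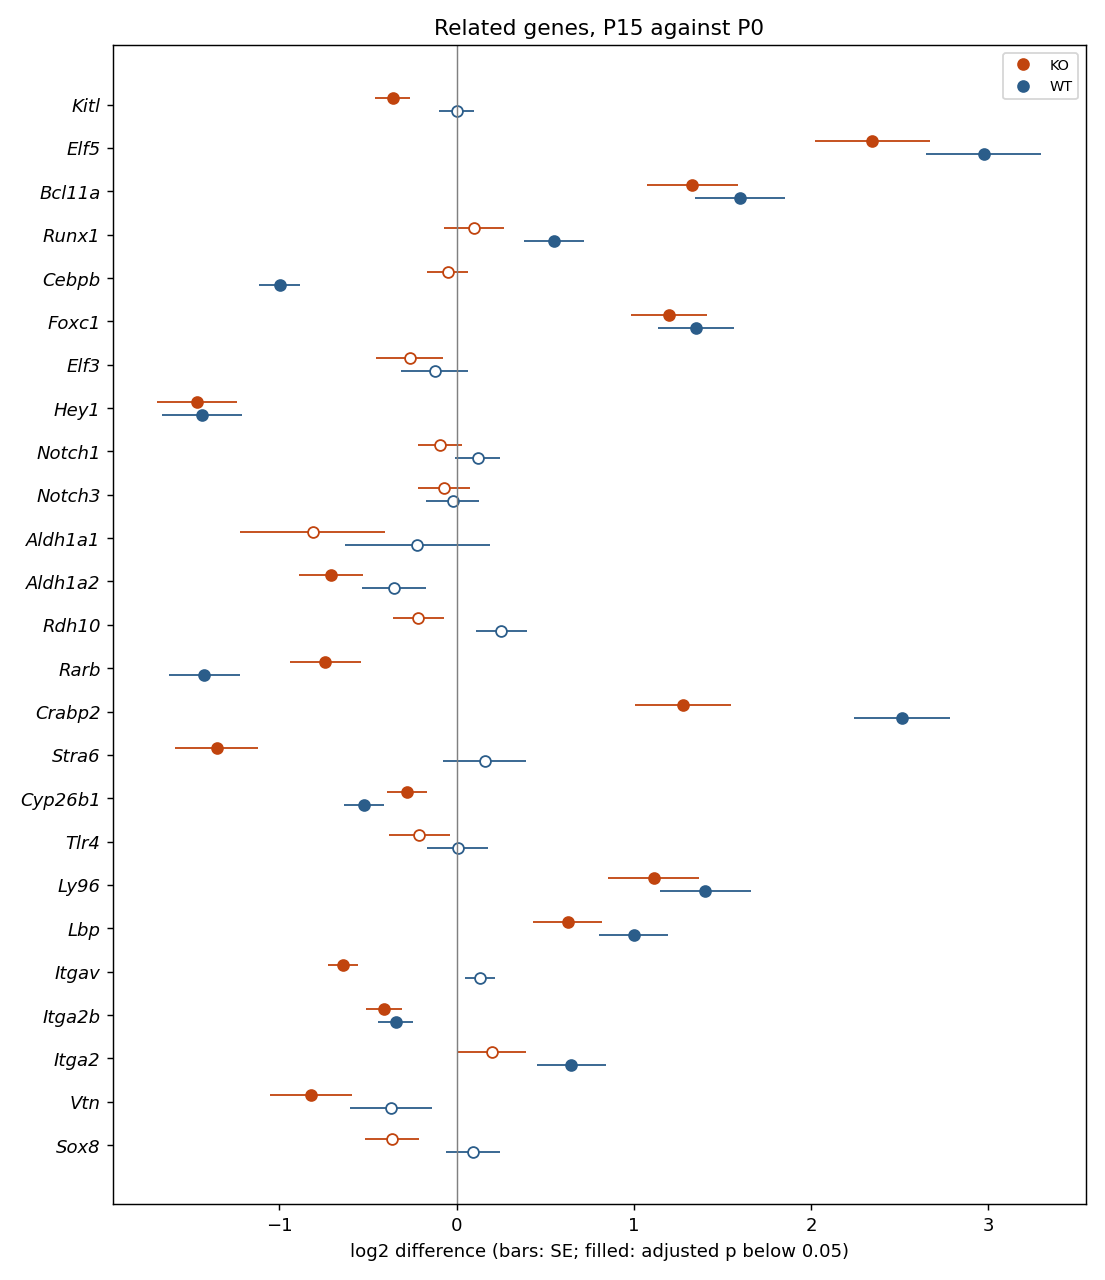
Log2 difference of P15 from P0 (x axis) for each related gene (rows), KO and WT, with bars of 1 standard error; filled markers have an adjusted p below 0.05. Elf5 lies highest in both genotypes, and Cebpb and Stra6 have a filled marker in one genotype and an open one near 0 in the other.

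The genes whose group means ran most like each of the 7 were found by Pearson r over the 10 group means, among 15925 named genes. For Sox9 they were Syt9, Slc5a1 and Hook1 (all r = 0.99), and for Sox10 Rnf43, Irx2 and Hook1 (all r = 0.99), so Hook1 stood beside both. Ehf ran with Fgd6 (0.99), Nhsl1 (0.98) and Ttpa (0.97), and Kit with Itgb8 (0.99), Lgr6 (0.98) and Map3k21 (0.97). Aldh1a3 was most like Peak1 (0.97), Paqr8 (0.96) and Snx27 (0.95), and Itgb3 most like Tmem45a (0.98), Cpne8 (0.97) and Tnfrsf17 (0.97). Cd14 had the loosest neighbours, Grm4 (0.87), Spty2d1 (0.81) and Rbm11 (0.80). With 10 points chosen from among so many genes, values of this size describe these groups and carry no test.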

How the data were processed

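Total RNA of whole mammary glands was amplified to sense-strand cDNA, labelled and hybridised to Affymetrix whole-transcript arrays, per the labels' protocols. The authors deposited 1 table of log2 intensities, with 34760 probe sets in 37 arrays. Affy was used, per the submitters' processing notes; how the background was corrected and the arrays normalised is not given in the sources used here. Groups hold 3 to 5 arrays, which limits the precision, and the labels name no batch.

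Probe sets with exactly 1 symbol (21640) were used; 1321 with several and 11799 with none named were left out. Of 19937 genes, 16865 exceeded 4.96, the table's 25th percentile, on 3 or more arrays and were tested. All 37 arrays were fitted with limma 3.58.1 (R 4.3.3), 1 mean per group, with two-sided moderated tests and Benjamini-Hochberg adjustment over all tested genes, threshold 0.05. The script was tested on simulated data. The members, the gene lists and the added test of the genotype difference in the P15 against P0 change were chosen with earlier results of these data known. Values are named for the 7 genes in all groups, for Ptpn1, for the 3 genes most like each of the 7 (predicted genes left out), and for related genes called in the mean over stages or at P15 against P0; other related genes named with values were chosen after these were seen. Some genes of the lists, among them Prlr, Areg, Lalba, Ccnb1, Spp1 and Cyp24a1, were not analysed here. No array columns were identical. Alternatives were no filter, all probe sets, quantile normalisation, centring, array weights, a trended and robust prior, marker scores as covariates, a replicate block, the compared groups alone and each array left out.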

Additional observations from a re-analysis of the deposited data

Results flagged for a closer look

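Itgb3 in WT P0 replicate 3 read 8.74, while the other 3 WT P0 arrays read 8.11, 8.16 and 8.19, a gap that passes Dixon's 95% limit for 4 samples. It was the 1 such array among 42 sets of 4 or 5 arrays tested for the 7 genes, of which chance alone flags about 1 in 20.

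The P15 against P0 change of Itgb3 differed between genotypes by -0.85 (KO minus WT) by the test of the difference itself, with a KO change of -1.01 and a WT change of -0.16.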

How the results depend on the processing

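Over all comparisons but the F test, 26 differences of the 7 genes were called. Of these 26, 0 turned sign and 12 changed their call under at least 1 alternative. Of the 79 uncalled, 31 turned sign, 29 of these among the 43 that lay under 1 SE from 0. The other changes were in counts of called genes among the 7. With array weights 1 was called in the mean over stages, 2 in KO against WT at P0, 1 at P10, 3 at P15 and 4 by the F test, 3 at P3 against P0 in WT glands, 3 at P10 against P0 in KO glands and 3 in the genotype difference of the P15 change. With the pan-epithelial score as a covariate 1 was called in KO against WT at P10, 1 at P15, 1 by the F test and 3 each at P3 against P0 in WT, P3 in KO and P10 in KO glands, and the KO against WT difference of Sox10 at P0 reversed to -0.053. The count for KO against WT at P15 was 1 with quantile normalisation, with centring, with lymphocyte and muscle scores as covariates, without the arrays in doubt and with the compared groups alone. Centring gave 1 by the F test, 2 at P3 and 3 at P10 against P0 in KO glands. At P3 against P0 in WT glands 0 were called with all probe sets, without the arrays in doubt or with the compared groups alone, and 3 with lymphocyte and muscle scores. At P10 against P0 in KO glands 0 were called in each of those 4 settings. With the compared groups alone 0 were called at P10 against P0 in WT glands. The causes of these changes were not tested.

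With each array left out in turn, the counts ran from 0 to 2 in KO against WT at P0, 0 to 1 at P15 and 0 to 2 by the F test. Against P0 they ran from 0 to 3 at P3 and 3 to 4 at P10 in WT glands, and in KO glands from 0 to 2 at P3, 1 to 5 at P7 and 0 to 2 at P10. For the genotype difference of the P15 change they ran from 1 to 3. The deviations of same-numbered KO and WT arrays of a stage had r between -0.52 and 0.38 over 18 pairs, with 9 over 0.1, which does not show that the numbers pair the samples, and the labels do not say so. A replicate block gave a count of 1 at P3 against P0 in KO glands (Aldh1a3, -0.77, adjusted p = 0.0437), ended the call of Sox10 at P7 in KO glands (0.57, adjusted p = 0.0715), gave one to Kit at P15 in KO glands (0.43, adjusted p = 0.0340) and changed no other call of the 7. Another probe set per gene or a mean over probe sets could not be tried, since each of the 7 has 1. The covariates and the test of the P15 change use the same arrays as the results they qualify, and with 3 to 5 arrays a group small differences could be missed.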
